A study of Homo sapiens with 10 samples.

Results

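GZMA, GZMB, GNLY, NKG7, KLRK1, CCL3 and CCL5 are 7 genes of cytotoxic lymphocytes: granule proteins, an activating receptor of natural killer (NK) and T cells, and chemokines. They were chosen by their called m6A peaks in the lists described here, so their counts are given as a description, with no test. Their rows were taken by gene name from 7 peak lists, which name 5000 genes in all and 4327 in the 5 libraries. The libraries came from V16A, an established line of castration-resistant prostate cancer, and the labels give its tissue as prostate. RNA was pulled down with an antibody against m6A (MeRIP-seq) in 2 libraries of cells under hypoxia, 2 under normoxia and 1 named for EU and 40 min. EU is read here as ethynyl uridine, which labels RNA as it is made, and the labels give no oxygen condition for that library. Each of the 5 has an input that was not pulled down, and 2 further lists are named for the hypoxia and the normoxia condition as a whole. All groups share this cell line, and the labels name no other allele or agent. The labels do not say that replicates came from separate cultures, so spread between them may be technical.

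Cytotoxic lymphocytes kill by releasing granules onto a target cell. Perforin opens the membrane, and the granzymes, which are serine proteases, then enter and cleave proteins inside; granulysin damages membranes of microbes and cells. NKG2D, the product of KLRK1, recognises ligands that stressed or transformed cells display, and CCL3 and CCL5 attract lymphocytes and myeloid cells. m6A is a methyl group on adenosines of RNA, placed on many mRNAs while they are transcribed, often within a short word around GGAC, and it affects splicing, decay and translation.

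NKG7 and CCL3 are shown by sequence because their peaks reach the RefSeq window around the gene start. This window runs from 250 bases before to 50 bases after the start in GRCh38.p14, and 5 of the 7 genes had one (GZMA, GZMB, GNLY, NKG7 and CCL3). CCL3 had 3, which cover 745 bases together. The windows were searched on both strands for the words GGACA and GGACC and for the word GGACT, none of which can share a match with another. The stretches below run 5′ to 3′ on the transcribed strand, the minus strand in both genes, with the word in capitals.
NKG7, chr19:51372622-51372650: cttgggctctaaGGACCcaggagtctggg
NKG7, chr19:51372673-51372701: tgacaaagcgcaGGACCcctcactgcccc
CCL3, chr17:36090123-36090151: cagacttcagaaGGACAcgggcagcagac
The NKG7 word nearer the gene body lay under peaks of hypoxia replicate 2, normoxia replicate 1 and the EU library, and the farther one, upstream of the RefSeq start, under peaks of hypoxia replicate 2 and the EU library. The CCL3 word lay under peaks of both hypoxia libraries. GGACT also stood on the other strand, which is not that of the CCL3 peaks. It lay at the positions of CCL3 blocks at chr17:36090111-36090115 in both hypoxia libraries and at chr17:36089760-36089764 in hypoxia replicate 2. Of 35116 such windows of 300 bases, 58.7% hold one of the words on the transcribed strand and 58.8% on the other strand. Within the 50 transcribed bases 14.5% do. CCL3 was searched over 745 bases, so the shares for windows of 300 bases are not like for like with it. A match describes the letters and is not a mapped site.

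The lists were long for hypoxia and the EU library and short for normoxia: hypoxia replicates 1 and 2 held 2879 and 6621 peaks, normoxia replicates 1 and 2 held 212 and 1563, and EU held 5044. Reads were not used here, so depth is unknown, and the absence of a peak says nothing about whether a gene was expressed or its RNA methylated. The label was checked against markers. Of 16 T cell markers, 7, 10, 2, 0 and 10 had a peak in hypoxia 1, hypoxia 2, normoxia 1, normoxia 2 and EU, among them TRAC, the T cell receptor alpha constant region, with 2, 1, 2, 0 and 2 peaks. Of 8 markers of leukocytes in general, 7, 7, 3, 1 and 7 had one, and in normoxia replicate 2 this was ARHGDIB. Of 13 prostate and epithelial markers the counts were 1, 3, 0, 4 and 7. In any of the 5 libraries 13, 7 and 7 of the T cell, leukocyte and prostate markers had a peak. Among all 4327 genes with one, the shares in these libraries were 29.1%, 49.7%, 3.21%, 20.7% and 55.2% in turn. HOXB13, a transcription factor of the prostate, had 0, 1, 0, 3 and 1 peaks. B cell markers (5) and monocyte or macrophage markers (9) had none in any library. Of 8 NK cell markers only PRF1 and KLRC1 had a peak in a library, both in hypoxia libraries alone. The hypoxia condition list held peaks in 1 monocyte or macrophage marker and 3 NK cell markers. Libraries labelled as prostate cancer cells thus held peaks in T cell genes. Apart from ARHGDIB, peaks in T cell and leukocyte markers stood in the same 4 libraries as those of the 7 genes, and their part in the results was not tested. In bulk RNA, fewer cells of a type and less RNA per cell cannot be told apart.

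**Figure D1:**
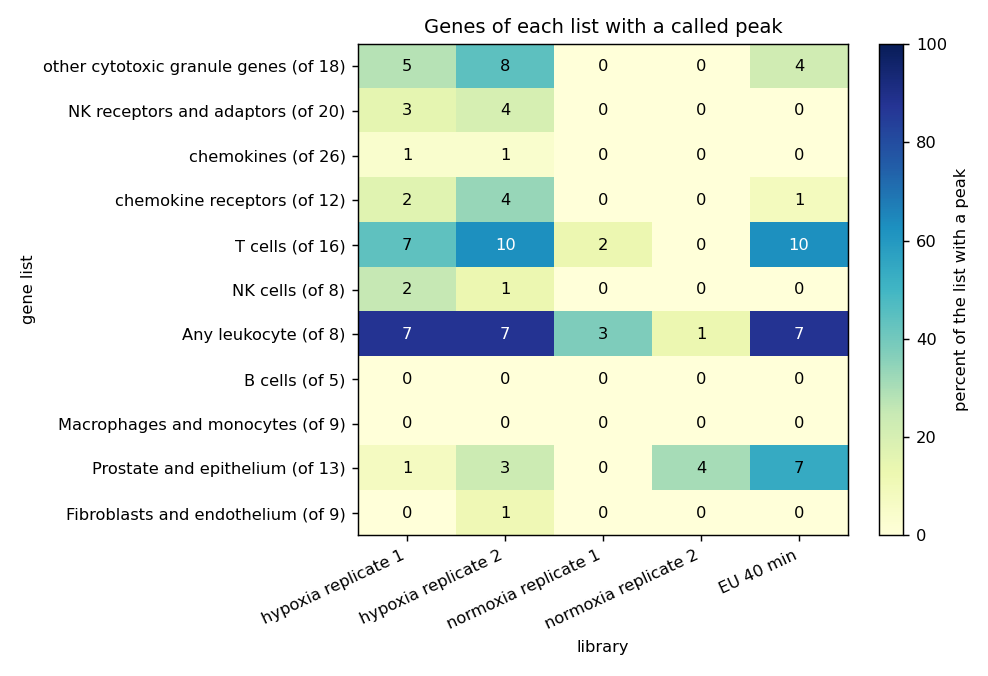
Number of genes with a called peak in each of 11 gene lists (rows, list size in brackets) and 5 libraries (columns); colour gives the percent of the list. T cell genes had peaks in 7, 10, 2, 0 and 10 cases from left to right, leukocyte genes in 7, 7, 3, 1 and 7, and prostate genes in 1, 3, 0, 4 and 7.

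All 7 genes had a peak in both hypoxia libraries, 5 had one in normoxia replicate 1, none in normoxia replicate 2 and 6 in EU. There were 16 and 12 peaks in the hypoxia libraries, 7 and 0 in the normoxia libraries and 10 in the EU library. Among the 4327 genes with a peak in any of the 5 libraries, 29.1% had one in hypoxia replicate 1, 49.7% in hypoxia replicate 2, 3.21% and 20.7% in normoxia replicates 1 and 2, and 55.2% in EU. The genes were chosen by these lists, and nothing is read from the contrast with those shares. KLRK1 and CCL3, 2 of the 7, had a peak in both hypoxia libraries and in neither normoxia library, as did 15.3% of 3226 genes with a peak in any of those 4.

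**Figure D2:**
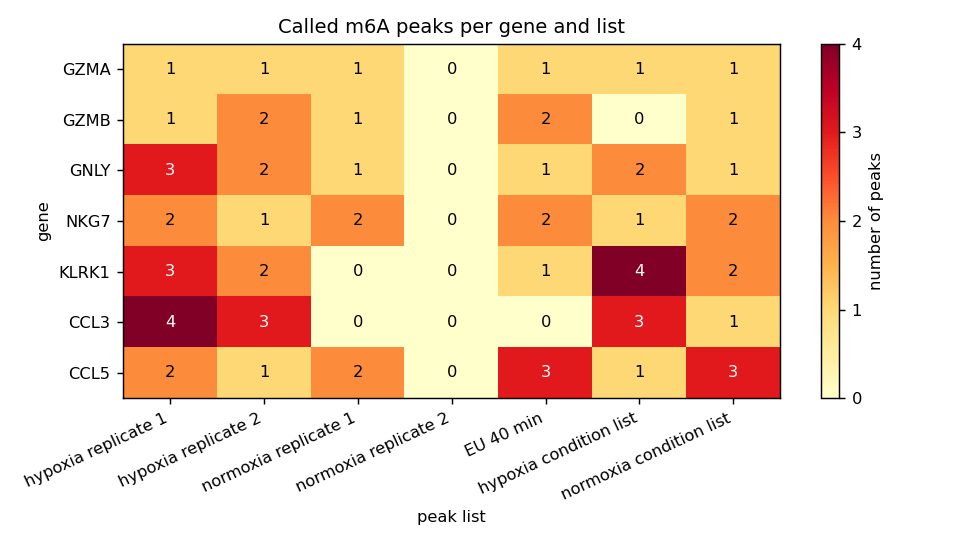
Number of called m6A peaks in each gene (rows) and list (columns; 5 libraries and 2 condition lists). Normoxia replicate 2 has 0 in every row, and GZMB has 0 in the hypoxia condition list although both hypoxia libraries have a peak in it.

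On the scale of log2 (peaks + 1), summed over the members, the hypoxia mean was 3.89 ± 0.27 (SD, n = 2). The normoxia mean was 1.50 ± 2.12 (SD, n = 2). The difference of 2.39 was about the size of the spread between the normoxia replicates, and over all peaks of the same lists it was 2.92. Without normoxia replicate 1 it was 3.89, and without normoxia replicate 2 it was 0.89. When every library was shortened to the 212 peaks of the shortest, it was 1.16, and hypoxia replicate 1 and normoxia replicate 1 then held 7 member peaks each. As a share of all peaks, the members made up 0.556% in hypoxia replicate 1 (exact binomial 95% interval 0.318 to 0.901), 0.181% in hypoxia replicate 2 (0.0937 to 0.316), 3.30% (1.34 to 6.68) in normoxia replicate 1 and 0.198% (0.0951 to 0.364) in EU. Normoxia replicate 2 had 0 of 1563. The intervals take each peak as a separate entry, which peaks of 1 gene are not, and hold no spread between libraries. They also take no account of the choice of the genes by these same lists. The share was highest in normoxia replicate 1 and was 0 in its replicate, and nothing is read from this order or from the intervals. The members' peaks covered 4988, 6216, 1427, 0 and 3005 bases in hypoxia 1, hypoxia 2, normoxia 1, normoxia 2 and EU.

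Peaks in these genes were wider at the median than all peaks in both hypoxia libraries and EU. In normoxia replicate 1 they were of like width. The genes were chosen by these lists and several peaks came from 1 gene, so nothing is read from contrasts in width or blocks. The median width, summed over blocks, was 249.5 bases in hypoxia replicate 1, 470.5 in hypoxia replicate 2, 149 in normoxia replicate 1 and 245.5 in EU, beside 150, 151, 150 and 199 over all peaks. A block is an unbroken stretch of a peak, and a peak of several blocks skips the sequence between them. Peaks of 2 or more blocks were 8 of 16 in hypoxia replicate 1, where 35.9% of all peaks had them, 9 of 12 in hypoxia replicate 2 (36.7%), 4 of 7 in normoxia replicate 1 (29.7%) and 6 of 10 in EU (19.8%).

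**Figure D3:**
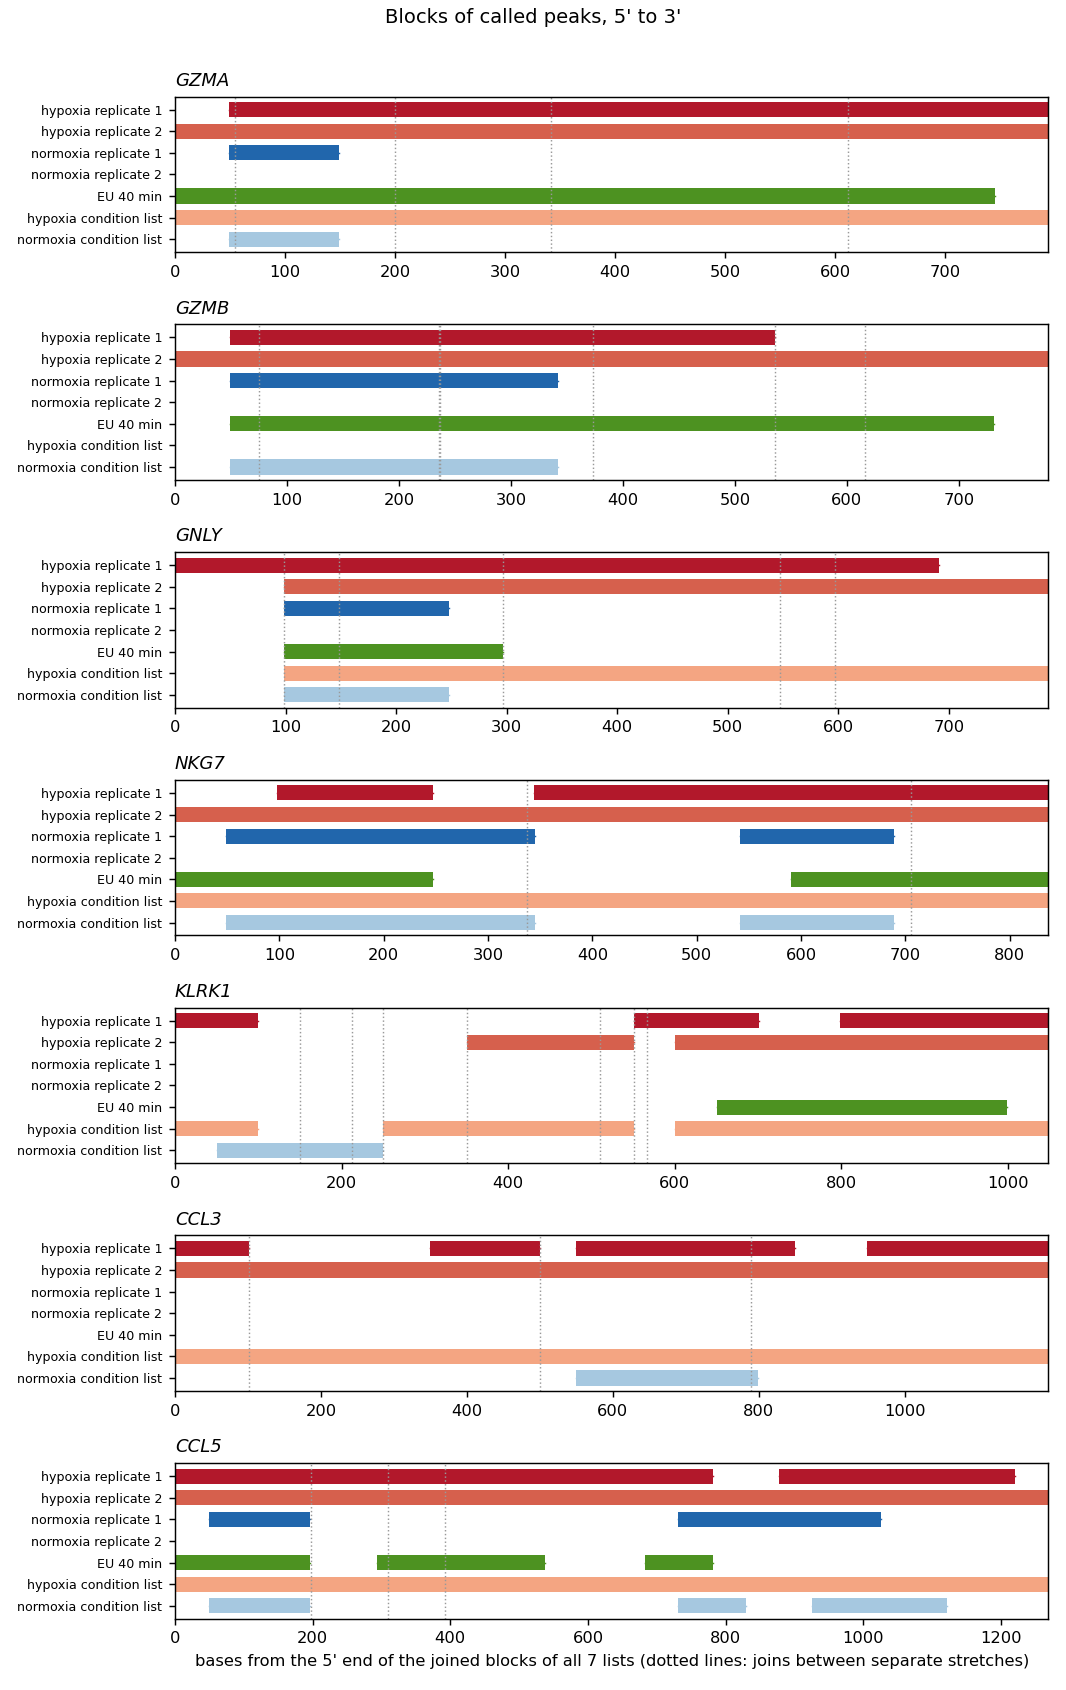
Blocks of the called peaks in each gene, laid end to end from the 5′ end (x axis, bases; dotted lines mark joins between separate stretches), with 1 row per list. Normoxia replicate 1 blocks lie inside those of hypoxia replicate 2 in all 5 genes that have them, and normoxia replicate 2 is empty.

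GZMA encodes granzyme A, a granule protease that cleaves after basic residues, at chr5:55102646-55110252 on the plus strand. It had 1 peak in each of 4 libraries, and the peak ran nearly from end to end of the gene in 3 of them. Hypoxia replicate 1 had chr5:55102747-55110202 in 5 blocks and 745 bases, hypoxia replicate 2 chr5:55102698-55110202 in 5 blocks and 794 bases, and EU chr5:55102698-55110153 in 5 blocks and 745 bases. The normoxia replicate 1 peak, chr5:55102747-55105567, held only the 5′ part, with 2 blocks of 6 and 94 bases. Its start was that of the hypoxia replicate 1 peak, and all 100 of its bases lay under the peaks of both hypoxia libraries and EU. Deposited p-values, which are the authors' and were used to rank peaks within a list, were 2.1e-07 and 5.1e-05 in hypoxia replicates 1 and 2, 1.7e-06 in normoxia replicate 1 and 1.2e-06 in EU.

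GZMB encodes granzyme B, the protease that cleaves after aspartate, at chr14:24630954-24634190 on the minus strand. Hypoxia replicate 1 had 1 peak, chr14:24631959-24633935, with 5 blocks and 487 bases, and EU had a peak identical to it in every block. Hypoxia replicate 2 had nearly the same peak, longer at the 5′ end (chr14:24631959-24633984, 536 bases), and a further peak near the 3′ end, chr14:24631051-24631618. EU had that further site too, at chr14:24631100-24631618. Normoxia replicate 1 had 1 peak, chr14:24632355-24633935, of 4 blocks and 293 bases, all inside the peaks of both hypoxia libraries and EU. Its blocks held 105, 1, 161 and 26 bases, and the 3 nearest the 5′ end were blocks of hypoxia replicate 1 and EU as well. GZMB stood lowest of the members in hypoxia replicate 1 and EU. Its smallest p was 0.0022 in hypoxia replicate 1, at 96.5% of the list counted from the smallest p, and 0.0016 in EU, at 82.8%. In normoxia replicate 1 it was 8.9e-07, at 15.6%, and in hypoxia replicate 2 it was 3.9e-06, at 30.7%.

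GNLY encodes granulysin, a saposin-like protein of cytotoxic granules, at chr2:85694358-85698852 on the plus strand. A peak of 2 blocks and 198 bases at chr2:85695375-85696106 was identical in hypoxia replicate 1, hypoxia replicate 2 and EU. Normoxia replicate 1 had the same site with an earlier 3′ end, chr2:85695375-85696057, and 149 bases. Both hypoxia libraries had a site of 3 blocks towards the 3′ end, chr2:85697428-85698657 and chr2:85697428-85698756, and neither normoxia replicate 1 nor EU did. Hypoxia replicate 1 alone had a peak of 99 bases near the start, chr2:85694441-85694539. The smallest p was 2.6e-06 in hypoxia replicate 1, 0.00085 in hypoxia replicate 2, 1.2e-05 in normoxia replicate 1 and 0.00037 in EU.

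NKG7 encodes a membrane protein of the granule that takes part in its release, at chr19:51371620-51372654 on the minus strand, and it ranked highest of the members in both hypoxia libraries and EU. Its smallest p was 5.9e-09 in hypoxia replicate 1 and 2.2e-09 in hypoxia replicate 2, within the first 0.347% and 0.287% of the lists. The values in normoxia replicate 1 and EU were 2.8e-06 and 5.2e-07. Hypoxia replicate 2 had 1 peak over the whole gene, chr19:51371704-51372715, with 3 blocks and 837 bases, which reaches upstream of the RefSeq start. Hypoxia replicate 1 had this stretch as 2 peaks, chr19:51371704-51372300 and chr19:51372469-51372617. EU had chr19:51371704-51372054 and chr19:51372469-51372715, and normoxia replicate 1 had chr19:51371956-51372103 and chr19:51372300-51372666. The normoxia peaks lay fully under the hypoxia replicate 2 peak. Hypoxia replicate 1 covered 100% of the former and 50.7% of the latter, and EU covered 66.9% of each. The 4 libraries shared 99 bases at chr19:51371956-51372054 and 149 at chr19:51372469-51372617.

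KLRK1 encodes the receptor NKG2D. The gene, at chr12:10372353-10390041 on the minus strand, had 3 peaks in hypoxia replicate 1, 2 in hypoxia replicate 2, 1 in EU and none in normoxia libraries. All 3 libraries met near the 3′ end: hypoxia replicate 1 at chr12:10372750-10372999, hypoxia replicate 2 at chr12:10372750-10373197 and EU at chr12:10372800-10373147. All 348 EU bases lay under hypoxia replicate 2. Further towards the 5′ end the hypoxia libraries differed. Hypoxia replicate 1 had chr12:10373098-10378147 in 2 blocks, in part under the 3′ peak of replicate 2, and chr12:10388853-10388952, while hypoxia replicate 2 had chr12:10378196-10378713 in 2 blocks. Over the whole gene they shared 350 bases, of 500 in replicate 1 and 648 in replicate 2. The smallest p was 5.8e-07, 8.9e-05 and 7.2e-06 in hypoxia replicate 1, hypoxia replicate 2 and EU. The lists also hold rows named for the read-through transcript KLRC4-KLRK1, which shares exons with KLRK1 and was not counted as a member. It had 3 and 2 peaks in hypoxia replicates 1 and 2, with 82.3% and 97.7% of their bases under KLRK1 peaks, and no peak in the normoxia and EU libraries. Reads of the 2 transcripts cannot be told apart there.

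CCL3 encodes an inflammatory chemokine that lymphocytes secrete on activation. The gene, at chr17:36088256-36090143 on the minus strand, had 4 and 3 peaks in hypoxia replicates 1 and 2 and no peak in the normoxia and EU libraries. Hypoxia replicate 2 covered 1197 bases in peaks at chr17:36088356-36089472, chr17:36089572-36089970 and chr17:36090069-36090169. Hypoxia replicate 1 covered 800 bases, all of them within those. The peak at the 5′ end was the same in both, and both lists start at the same 3′ base. The deposited p of every CCL3 peak was 1.9e-06 in replicate 1 and 2.9e-09 in replicate 2, at 14.7% and 0.317% of the lists. CCL3 has near-identical gene copies, CCL3L1 and CCL3L3, which were absent from all 7 lists. No source used here says how reads were divided among the copies, so the CCL3 assignment is uncertain.

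CCL5 encodes a chemokine that cytotoxic T cells hold ready for release. The gene, at chr17:35871491-35880360 on the minus strand, had 2, 1, 2, 0 and 3 peaks in hypoxia 1, hypoxia 2, normoxia 1, normoxia 2 and EU. The hypoxia replicate 2 peak ran over the whole gene, chr17:35871588-35880427, with 4 blocks and 1269 bases. Hypoxia replicate 1 had the same 5′ end and 2 peaks, chr17:35871637-35871978 and chr17:35872076-35880427, of 1123 bases together. EU had 3, chr17:35872076-35872173, chr17:35872320-35878544 and chr17:35880232-35880427, all within the hypoxia peaks. The 2 normoxia replicate 1 peaks lay at opposite ends of the transcript. That at the 5′ end, chr17:35880232-35880378, was covered in full by both hypoxia libraries and EU. That near the 3′ end, chr17:35871832-35872125, was covered in full by hypoxia replicate 2, to 67.0% by hypoxia replicate 1 and to 17.0% by EU, the lowest value of any normoxia site here. The smallest p was 3.5e-07, 4.7e-07, 4.2e-06 and 9.8e-07 in hypoxia replicate 1, hypoxia replicate 2, normoxia replicate 1 and EU.

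**Figure D4:**
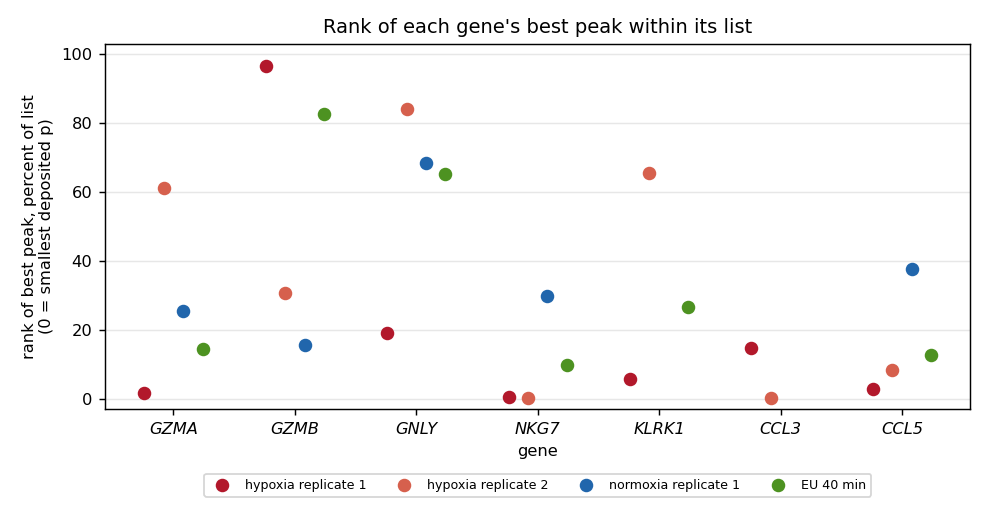
Rank of each gene's smallest deposited p within its list, as percent of the list (0 is the smallest p), for the 4 libraries with peaks in these genes. NKG7 lies under 1% in both hypoxia libraries, and GZMB lies at 96.5% in hypoxia replicate 1; ranks from lists of different length are not comparable as changes.

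Peaks of a gene often carry the same deposited p, so they are not independent entries. Among genes with 2 or more peaks, at least 2 peaks shared a p in 52.2%, 68.1%, 41.7% and 72.0% of genes in hypoxia 1, hypoxia 2, normoxia 1 and EU. Of the members this held for 4 of 5, 3 of 4, 1 of 2 and 2 of 3.

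The normoxia replicate 1 sites were then set against the other lists. All 7 were overlapped, by at least 1 base on the same strand, by a peak of hypoxia replicate 1, of hypoxia replicate 2 and of EU, and none by normoxia replicate 2. Over all 212 peaks of that library the shares were 52.8% for hypoxia replicate 1, 59.9% for hypoxia replicate 2 and 55.7% for EU, and 32.1% were overlapped by all 3. Overlap was taken by position and strand, whatever the gene name, and every peak that overlapped the 7 sites bore the name of the same gene. Of the 139 genes of the library, 35.3% had a peak in all 3 of the other lists, the 5 members with peaks there included. Within the genes that did, 76.4% of 89 peaks were overlapped by all 3, beside 7 of 7 here. Hypoxia peaks were wide in the members, which were chosen by these lists, so nothing is read from this contrast.

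**Figure D5:**
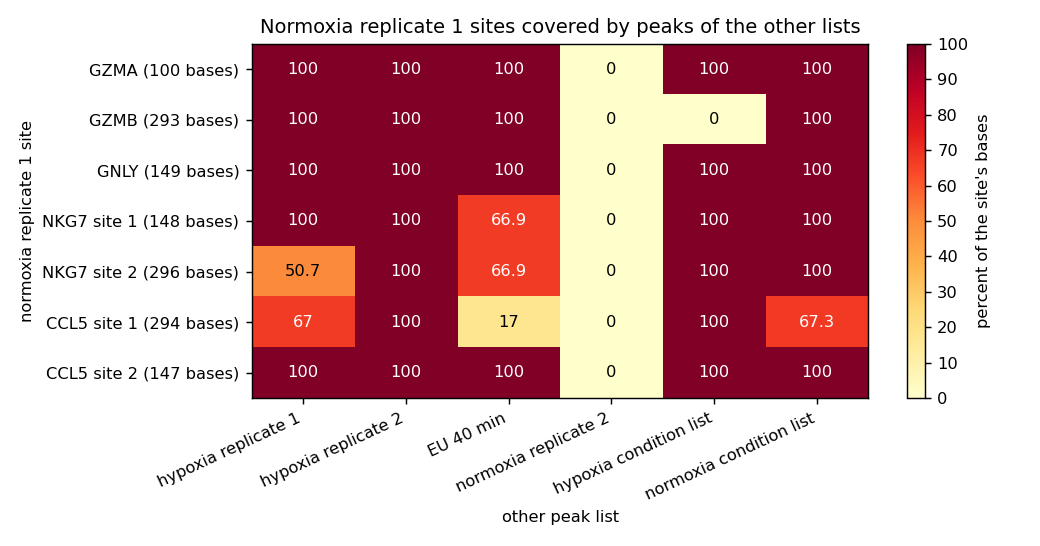
Percent of the bases of each normoxia replicate 1 site (rows) that lie under peaks of each other list (columns). Hypoxia replicate 2 covers every site in full and normoxia replicate 2 none, and EU covers between 17.0% and 100%.

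By bases, 1427 of the 1427 in these sites lay under hypoxia replicate 2, 1184 (83.0%) under hypoxia replicate 1 and 1036 (72.6%) under EU. Over all bases of the library the shares were 57.7%, 51.0% and 58.1%. None of the 7 sites was identical to a hypoxia or EU peak in all its blocks. Of their 26 block edges, 13 fell on exactly the same base as an edge in hypoxia replicate 1, and 13 each did so in hypoxia replicate 2 and in EU. Over all 586 edges of the library the shares were 26.8%, 24.6% and 25.3%. Edges between the blocks of a peak are counted too, and peaks that skip the same sequence can share these. Peaks of several blocks were 4 of 7 in the members, beside 29.7% in the library, so the edge shares are not of like peaks. By bases, the sites lay wholly within stretches called in hypoxia replicate 2. In GZMA, GZMB, NKG7 and CCL5 the peaks of hypoxia replicate 2 reached nearly from end to end of the gene. Their blocks held 794, 780, 837 and 1269 bases. Whether this width accounts for the full overlap was not tested. The members were also chosen by these lists, and nothing is read from the contrast with the shares over the library. Against hypoxia replicate 1, a site of NKG7 and the 3′ site of CCL5 were covered only in part, and no member had a base covered in normoxia replicate 1 alone.

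EU peaks in the members were then set against the hypoxia libraries, and 2 of 10 were identical to a hypoxia peak in all blocks. Under normoxia replicate 1 lay 34.5% of the EU bases in the members. All 10 EU peaks in the members were overlapped by a hypoxia library, beside 34.1% of all EU peaks, and 100% of their bases lay under hypoxia replicate 2 and 85.4% under hypoxia replicate 1, against 22.7% and 10.2% over all EU bases. Between the hypoxia libraries, 14 of 16 member peaks of replicate 1 were overlapped by replicate 2, beside 47.4% of all peaks of replicate 1. The exceptions were the 5′ peaks of GNLY and KLRK1. All members had peaks in both hypoxia libraries, while the shares over all peaks and bases include genes with none in the other list. Nothing is read from these contrasts. Bases covered in every library that had a peak in the gene ranged from 12.6% of all covered bases in GZMA to 66.8% in CCL3, with 15.5% in CCL5, 18.9% in GNLY, 29.6% in NKG7, 31.3% in KLRK1 and 37.6% in GZMB. CCL3 is measured over 2 libraries and KLRK1 over 3, so their shares rest on fewer libraries than the rest.

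The condition lists gave another picture for KLRK1 and CCL3. All 7 genes had a peak in the normoxia condition list, 11 peaks in all, where 24.6% of the 5000 genes named in any list had one. In the hypoxia condition list 6 of the 7 had one, 12 peaks in all, beside 52.7% of those genes. Of the hypoxia condition peaks 11 of 12 were overlapped by a hypoxia replicate (67.4% of all peaks in that list), and of the normoxia condition peaks 8 of 11 by a normoxia replicate (50.5%). The 3 others were 2 peaks of KLRK1, chr12:10379756-10381876 and chr12:10388803-10388902, and 1 of CCL3, chr17:36088754-36089423, in genes where neither normoxia library had a peak. GZMB was missing from the hypoxia condition list. In the normoxia condition list 6 of the 7 normoxia replicate 1 sites were identical in every block, and that of CCL5 near the 3′ end appeared as chr17:35871735-35871930 and chr17:35872027-35872125. No source used here says how the condition lists were made.

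Other genes of the same pathways were followed through lists of known function. Of 18 other cytotoxic granule genes, 5, 8, 0, 0 and 4 had a peak in hypoxia 1, hypoxia 2, normoxia 1, normoxia 2 and EU. In any of these libraries 11 of the 18 had one. Among all genes with a peak in any of them, the shares were 29.1%, 49.7%, 3.21%, 20.7% and 55.2% in turn. The counts of this and the next lists are a description, and nothing is read from them. CTSW, the lymphocyte protease cathepsin W, had 4, 4, 0, 0 and 3 peaks. PRF1, which encodes perforin, had 5 and 4 peaks in the hypoxia libraries and none elsewhere, and SRGN, the proteoglycan of the granule core, had 1 in hypoxia replicate 1 and 2 in EU. CST7, a cathepsin inhibitor, and CTSC, the protease that activates granzymes, had peaks in both hypoxia libraries alone. GZMH, a granzyme similar in sequence to GZMB, had 2 peaks in hypoxia replicate 2, and the split of reads between them is likewise unknown.

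Of 20 NK receptors and adaptors, 3 and 4 had a peak in hypoxia replicates 1 and 2 and none in the other 3 libraries. KLRB1 and NCR3, both receptors of NK and some T cells, had them in both. Of 26 other chemokines, CCL4 had 3 peaks in hypoxia replicate 2 and CCL22 had 1 in hypoxia replicate 1, and neither had any in the other libraries. Of 12 chemokine receptors, 2, 4, 0, 0 and 1 had a peak. CCR1, a receptor of CCL3 and CCL5, had 0, 5, 0, 0 and 0 peaks. None of 8 NKG2D ligands had a peak in any list.

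Of 11 granzyme substrates and inhibitors, 4, 4, 2, 0 and 4 had a peak. HMGB2, a chromatin protein cleaved by granzyme A, had 2, 3, 3, 0 and 3 peaks, and LMNB1, a nuclear lamin, had 2, 3, 1, 0 and 0. HMGB2 and LMNB1 are abundant in dividing cells of many kinds and do not mark lymphocytes. In normoxia replicate 1 no other granule, receptor or chemokine gene of these lists had a peak. The granule, NK receptor, chemokine and chemokine receptor lists had only 11, 5, 2 and 6 genes with a peak in any library. Of all genes with a peak in any library, 3.21% had one in normoxia replicate 1, so nothing is read from this absence.

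Of the 4327 genes with a peak in any of the 5 libraries, 30 had them in both hypoxia libraries, normoxia replicate 1 and EU alone. Of these 30, 5 were members. The pattern of KLRK1 (both hypoxia libraries and EU) was that of 214 of the 4327 genes, and the pattern of CCL3 (both hypoxia libraries alone) was that of 278. The members were chosen by these lists, so nothing is read from their number in a pattern. Likeness was measured within a pattern as the sum of absolute differences in peak number over the 5 libraries. TMSB10, an actin-binding thymosin, had the counts of GZMA in every library. TMSB4X, its relative, came within 1 of NKG7 and 2 of GZMB and CCL5. SELPLG, the selectin ligand of leukocytes, came within 2 of CCL5, CD48, a leukocyte surface protein, within 2 of GNLY, and B2M, the light chain of MHC class I, within 3 of CCL5. ARMC1 matched KLRK1 in every library, with LTB, a lymphocyte cytokine, 1 away, and FUBP1 matched CCL3, with PFKFB3, a glycolytic regulator, 1 away. Such small counts match by number alone in many genes.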

How the data were processed

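V16A cells under hypoxia or normoxia, and 1 EU sample, were profiled by MeRIP-seq, and 7 peak lists were used. Reads were aligned with STAR to hg38, per the submitters' processing notes; the sources used here give no version, peak caller, peak threshold or use of inputs. The deposited lists are BED tables of 12 columns without a header. Column 5 was read as the authors' deposited p-value from its range (0 to 0.013), since nothing names it. Peaks were matched by exact gene name, starts were moved to count from 1, and overlap meant at least 1 base of block on the same strand. Gene spans and start windows came from RefSeq GRCh38.p14. The overlap code was tested on simulated data. Analyses used Python 3.11.15, NumPy 2.4.6, SciPy 1.17.1 and Matplotlib 3.10.9.

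The members and gene lists were chosen with earlier results of these data known, and no test was run. All members are named, with up to 6 genes of each list by number of libraries with a peak, and up to 3 genes most like each member. Some genes that this rule names count in the lists and are not reported here. The search for words in start windows was added after the data were seen. Alternatives changed the p threshold, width, list length, overlap rule, condition lists and replicates. Gene regions and sequence under peaks outside start windows were not analysed here.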

Additional observations from a re-analysis of the deposited data

How the results depend on the processing

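Of 47 alternatives over 6 results, 11 moved the value and 0 reversed it. The other 36 stayed within the tolerance used, which is wide with so few peaks. It was the exact 95% interval for a percent and 1.5 times for a count. For the log2 difference it was 2.14, the root of the summed variances of the hypoxia and normoxia replicates, which is close to the difference itself. The count of 2 genes with peaks in both hypoxia libraries and neither normoxia library became 1 when only the better-ranked 50% of peaks was kept in each list, 4 with peaks of 151 bases or more, 0 with lists shortened to 212 peaks and 0 with the condition lists. With a replicate left out it ranged from 2 to 7, the 7 being without normoxia replicate 1. The 5 genes with peaks in normoxia replicate 1 and a hypoxia library became 3 with wide peaks and 3 with shortened lists. Normoxia replicate 1 sites overlapped by hypoxia went from 100% to 0 when all blocks had to be identical, and those overlapped by EU from 100% to 0 with identical blocks and to 0 with shortened lists, where no EU peak of the members was left. EU peaks overlapped by hypoxia went from 100% to 20.0% with identical blocks. The log2 difference in peaks, 2.39, ranged from 0.89 to 3.89 with a replicate left out and was 1.16 with shortened lists. Overlap of normoxia sites was 71.4% for hypoxia with shortened lists and 66.7% for EU with wide peaks. For the 3 counts that moved with list length or width, the cause was not tested. With no EU peak left, the EU overlap with hypoxia had no value in shortened lists.

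No paired analysis was possible because the results come from no test and nothing in the labels ties equal replicate numbers together. Of the normoxia libraries, replicate 1 alone holds peaks of these genes, and EU is 1 library. Depth is unknown, so absence from a list limits nothing about methylation or expression. The planned position by gene region and motif under all peaks were not run.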
